A study of Danio rerio with 10 samples.

Results

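The gene expression of injured wild-type cardiac ventricles was set beside that of regenerating wild-type caudal fins, using the 5 wild-type libraries of 10 in the series and the 20684 genes listed for both tissues. The ventricle group held 2 libraries of whole ventricles from adult zebrafish at 96 hours post cryoinjury (hpci), each pooled from 2 animals. The fin group held 3 libraries of caudal fin tissue from adult zebrafish at 24 hours post amputation (hpa), each from 1 animal and taken from next to the amputation plane. All fish were Tüb/AB and were siblings of *il11ra* mutants, and the 5 mutant libraries (2 of ventricles, 3 of fins) served as libraries that took no part in the calls. Injury, time after injury, pooling, table and tissue all differ between the groups, so their parts in any difference cannot be told apart.

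Adult zebrafish rebuild both organs after injury. In the heart, surviving cardiomyocytes divide while the epicardium, the endocardium and immune cells respond to the wound, and a transient matrix is laid down. In the fin, epidermis covers the stump, and cells of the ray, including osteoblasts and the mesenchyme within it, form a blastema from which skeleton and skin grow again. Interleukin-6 family cytokines, Il-11 among them, signal through the shared receptor Il6st and the transcription factor Stat3.

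The deposited values are normalized counts, scaled within each tissue on its own, so they cannot be compared directly between tissues and no test was run across them. Each gene was ranked within each library among the 20684 genes, from 0 (lowest) to 100 (highest). A gene was called ventricle-higher where its percentile rank in both ventricle libraries lay at least 20 points above its rank in every fin library, and fin-higher in the reverse case. A gene less than 20 points from the top in any fin library thus cannot be ventricle-higher. The same bound in a ventricle library keeps a gene from being fin-higher. With 2 libraries against 3, a two-sided exact permutation test of a single gene reaches no lower than p = 0.1. The differences between tissues are therefore descriptions of these libraries, read against the spread between replicates and against the share of all genes called.

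The values of the fin libraries had a low ceiling. The highest value was 3960 to 5359 times the median in wild-type ventricles and 58.2 to 77.2 times the median in wild-type fins. The 10 highest genes took 11.9 to 14.5% of the summed values in ventricles and 0.958 to 1.099% in fins. The actin genes *actb1* and *actb2* stood in a ratio of 0.335 to 0.445 in ventricles and of 0.997 to 1.01 in fins, where they had nearly the same value. The 77 cytosolic ribosomal proteins, short and abundant transcripts in every cell, had a median rank of 98.8 and 98.9 in the ventricle libraries and of 80.6 to 84.8 in the fin libraries. The values at the top of the fin libraries thus lie close together, and the source of the ceiling was not tested. The library sums were 12229373 and 13273996 in ventricles and 3768621 to 3901276 in fins. A further 2827 genes were listed for ventricles alone and 1518 for fins alone; these were not compared here. The 2827 genes held 20.2 to 22.5% of the summed values of the ventricle libraries, and the 1518 held 0.196 to 0.202% of those of the fins.

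Within a tissue the libraries ranked genes alike, with a Spearman correlation across genes of 0.984 between the ventricle libraries and 0.980 to 0.983 between the fins. Between tissues it was 0.682 to 0.700. Genes are not independent replicates, and these correlations describe the libraries only. The median gene differed by 2.53 points between the ventricle libraries and spanned 4.61 points over the fins, and 95% of genes stayed within 10.3 and 13.6 points. The 20-point gap thus lies above the spread of nearly all genes within a tissue. Of the 20684 genes, 2078 were ventricle-higher (10.05%), 1855 were fin-higher (8.97%) and 16751 were called in neither direction. Counted by share, with every ventricle and fin library at least 4-fold apart, the balance turned, with 944 ventricle-higher and 3575 fin-higher genes. Without a minimum gap, both ventricle libraries ranked above every fin for 7524 genes (36.4%), and every fin ranked above both ventricle libraries for 8854 (42.8%).

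**Figure D1:**
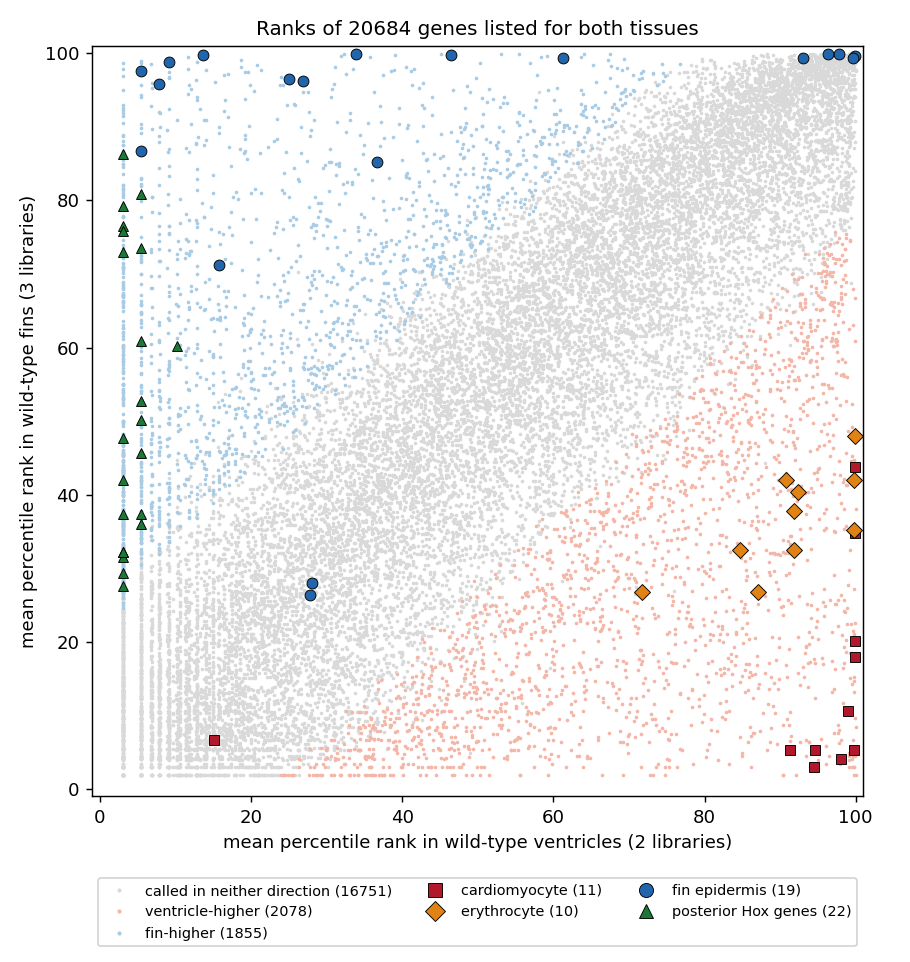
Mean percentile rank of each of the 20684 genes in the 2 wild-type ventricle libraries (horizontal axis) and in the 3 wild-type fin libraries (vertical axis), with called genes tinted and 4 gene lists marked. The 10 erythrocyte genes and 10 of 11 cardiomyocyte genes lie at the right and below the diagonal, the 22 posterior Hox genes lie along the left edge, and the fin epidermis genes spread along the top, from genes near 0 in ventricles to keratins that rank near 100 in both tissues.

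Cardiac muscle genes were far apart between the tissues. Of 11 cardiomyocyte genes listed for both tissues, 10 were ventricle-higher (90.9%, against 10.05% of all genes) and 0 fin-higher. Their median rank was 98.95 in ventricles and 6.67 in fins. In such whole-tissue samples, fewer cells of a type and less RNA per cell cannot be told apart. The cardiac troponin T gene *tnnt2a* (GRCz11 chromosome 23, 5653224 to 5685172) had normalized counts of 64010 and 50845 in ventricles and of 61, 74 and 57 in fins. For *pln*, which encodes phospholamban, the brake on the calcium pump of the sarcoplasmic reticulum, the counts were 23572 and 23773 in ventricles and 1, 0 and 2 in fins. The transcript is annotated as antisense in the deposited tables, so reads of an overlapping gene may be included. Both ventricle libraries ranked above every fin for all 11 genes, as they did for 36.4% of all genes. A further 10 symbols of the list, among them *myl7* and *nppa*, were listed for ventricles alone. In the KEGG list for cardiac muscle contraction, 26 of 64 genes were ventricle-higher (40.6%) and 4 fin-higher (6.25%), against 10.05% and 8.97% of all genes. Many of the 26 were respiratory chain subunits, among them *cox4i1l*, *cox6a2* and *cox7c*, that count again in the list for oxidative phosphorylation below.

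The transcription factors that build the heart followed. *nkx2.5* had 1536 and 1222 normalized counts in ventricles, against 1, 0 and 2 in fins. *hand2* had 1389 and 1286 in ventricles, against 0, 0 and 1 in fins, and *tbx5a* 863 and 862 in ventricles, against 0, 3 and 0. The natriuretic peptide gene *nppb*, a marker of stressed myocardium, had 5512 and 7229 in ventricles and 2, 2 and 4 in fins. The titin genes were less even among fins. *ttn.2* had 38843 and 39309 in ventricles and 3, 87 and 60 in fins, with fin 1 the lowest for both *ttn.1* and *ttn.2*. *myl4*, an atrial-type myosin light chain in mammals, was low in every library (6 and 3 in ventricles, 1, 2 and 1 in fins) and was not called.

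By size of the separation in library share (the smallest difference over all library pairs in log2 of the share in ppm plus 1), the leading ventricle-higher genes were mostly sarcomere and muscle energy genes. The cardiac myosin heavy chain gene *myh7l* (chromosome 2, 24274293 to 24289726) had 434084 and 324716 normalized counts in ventricles and was listed at 0 in all 3 fins. It had the largest mean share of any jointly listed gene in ventricles. The oxygen-binding protein myoglobin, *mb*, had 174525 and 143464 in ventricles and 44, 30 and 58 in fins. The Z-disc and filament genes *actn2b*, *desma*, *flnca* and *myom1b* lay between 16580 and 56083 in ventricles and between 0 and 2 in fins. *acta1b*, a skeletal-type actin, had 24448 and 42964 in ventricles and 1 in each fin, and *ckma*, a muscle creatine kinase, had 39581 and 33943 in ventricles and 1, 2 and 0 in fins. Both stood on the skeletal muscle list, of which the other 4 jointly listed members lay between 1 and 14 in ventricles and between 0 and 61 in fins. *mylpfb*, a fast-muscle myosin light chain gene, had 5 and 1 in ventricles and 3, 4 and 3 in fins.

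The glycolytic gene *gapdh*, often used as a reference gene, stood among these genes. Its normalized counts were 196205 and 118183 in ventricles and 2, 0 and 4 in fins. Its paralog *gapdhs* had 5840 and 6655 in ventricles and 887, 715 and 765 in fins and was not called. The 15 leading genes also held *hspb11*, a small heat shock protein, and 4 transcripts known only by clone names. BX571880.1, a lincRNA, had 22917 and 20437 in ventricles and 0 in all fins. CU914776.1 lay between 30923 and 38385 in ventricles and between 2 and 3 in fins. BX649307.1 had 22914 and 18982 in ventricles and 1 in each fin, and FO704772.3 had 13045 and 11613 in ventricles and 0, 1 and 0 in fins. All 15 were called ventricle-higher in the mutant libraries as well.

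The vascular and supporting cells of the heart separated less completely. Among 13 genes of endocardium and endothelium, 7 were ventricle-higher (53.8%, against 10.05% of all genes) and 0 fin-higher. Their median rank was 93.4 in ventricles and 51.1 in fins. The junction gene *cdh5* had 4151 and 5088 normalized counts in ventricles and 5, 6 and 8 in fins. *vwf*, the clotting factor stored by endothelium, had 6504 and 8891 in ventricles and 24, 18 and 24 in fins. Other endothelial genes were plain in both tissues. The Vegf receptor *kdrl* had 3356 and 3564 in ventricles and 375, 368 and 392 in fins (ranks of 98 against 84 to 85), and *nfatc1* and *klf2a*, which are linked to the endocardium and to blood flow, were not called. *flt1* and *kdr*, 2 more Vegf receptors, and the ligand gene *vegfab* were ventricle-higher. *vegfab* had 2227 and 1619 in ventricles and 41, 38 and 52 in fins.

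Of 5 epicardial genes, *wt1b* alone was called (20% ventricle-higher, against 10.05% of all genes). It had 264 and 254 normalized counts in ventricles and 12, 14 and 9 in fins. *aldh1a2*, which makes retinoic acid in the injured epicardium and endocardium, had 3874 and 5549 in ventricles and 396, 250 and 218 in fins. The groups did not overlap, but *aldh1a2* ranked less than 20 points from the top in fin 1, so the rule could not call it ventricle-higher. *tcf21*, *wt1a* and *tbx20* were listed for ventricles alone, with 146 and 231, 120 and 119, and 690 and 643 normalized counts. Smooth muscle genes gave 5 ventricle-higher of 8 (62.5%, against 10.05% of all genes). *acta2* had 1642 and 1302 in ventricles and 54, 57 and 73 in fins, and *cnn1b* 403 and 638 in ventricles and 9, 20 and 17 in fins. *acta2* was not called between the mutant libraries.

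**Figure D2:**
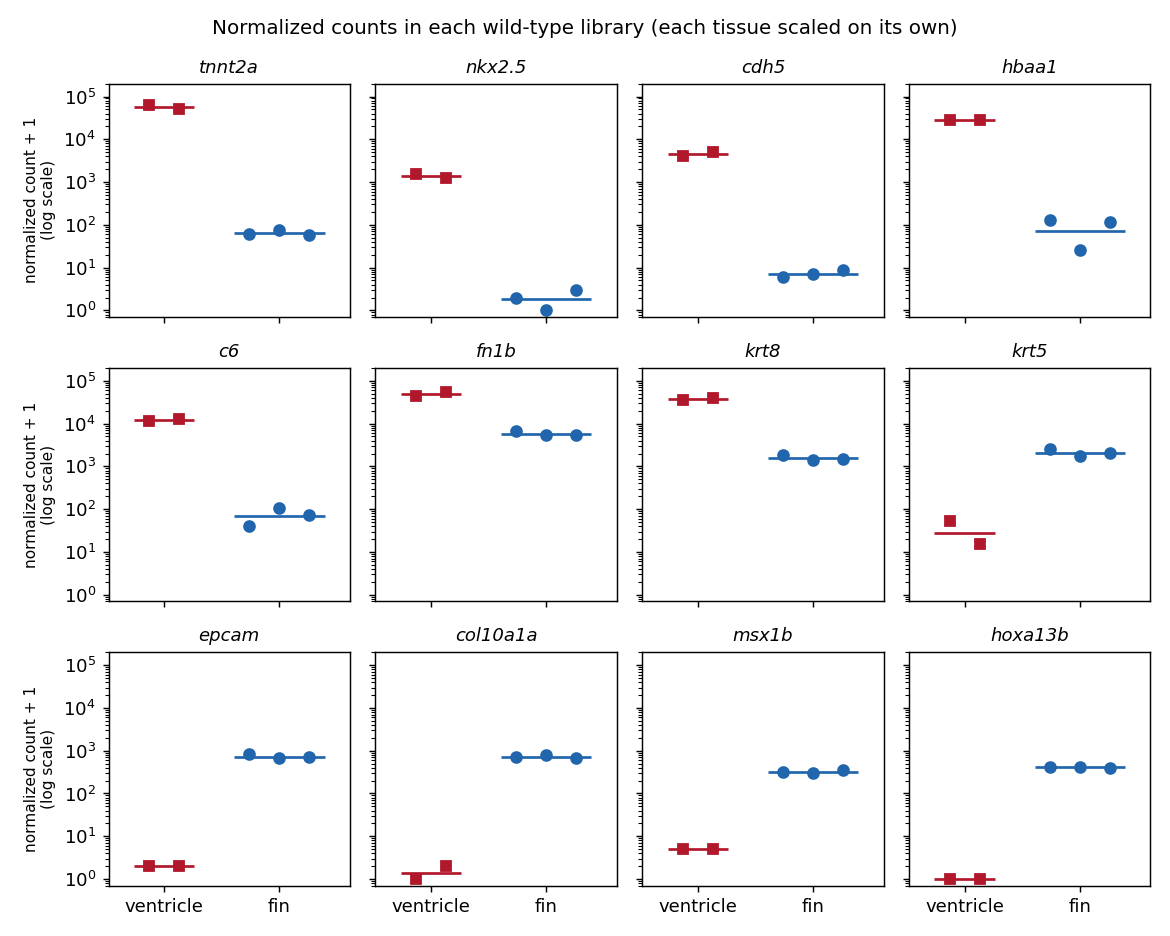
Normalized counts plus 1 on a log axis for 12 genes in each wild-type library, ventricles as red squares on the left and fins as blue circles on the right, with horizontal lines at the geometric mean of each group. Each tissue was scaled on its own. *tnnt2a*, *nkx2.5*, *cdh5*, *hbaa1* and *c6* stand high in ventricles, *fn1b* and *krt8* stand high in both tissues, and *krt5*, *epcam*, *col10a1a*, *msx1b* and *hoxa13b* stand high in fins; the lowest *hbaa1* value belongs to fin 2.

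Red blood cell genes were ventricle-higher throughout. All 10 erythrocyte genes were called, against 10.05% of all genes, with a median rank of 91.8 in ventricles and 36.5 in fins. The alpha globin gene *hbaa1* had 28994 and 28559 normalized counts in ventricles and 128, 25 and 116 in fins. *alas2*, the rate-limiting enzyme of heme synthesis in red cells, had 885 and 748 in ventricles and 71, 18 and 103 in fins. Fin 2 was the lowest of the 3 fins for all 10 genes, and the list's summed share of the library was 7721 and 7684 parts per 1000000 (ppm) in ventricles against 160, 32.2 and 189 ppm in fins 1, 2 and 3. The globin genes of this cluster are near copies of each other, and how reads were divided among them is uncertain. *epoa*, which encodes the hormone erythropoietin, had 1325 and 832 in ventricles and 1, 1 and 2 in fins. Of 5 thrombocyte genes 3 were ventricle-higher (60%, against 10.05% of all genes). The list also held *fn1b* and *thbs1b*, which count again in the transitional matrix list below. The platelet integrin gene *itga2b* had 339 and 337 in ventricles and 3, 2 and 8 in fins.

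Immune genes did not all lean the same way. Of 12 macrophage genes, 5 were ventricle-higher (41.7%, against 10.05% of all genes) and 0 fin-higher. In all 5 libraries, 10 of the 12 ranked above 50. *mpeg1.1*, a macrophage perforin, had 824 and 891 normalized counts in ventricles and 384, 323 and 333 in fins and was not called. *mfap4* had 1831 and 1474 in ventricles and 93, 98 and 64 in fins. The complement genes *c1qa*, *c1qb* and *c1qc*, which macrophages make, were called in the wild type but in none of the mutant comparisons. The list's summed share was 1895 to 2023 ppm in ventricles and 886 to 997 ppm in fins.

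Of 14 complement genes, 6 were ventricle-higher (42.9%, against 10.05% of all genes) and 0 fin-higher. The 6 include *c1qa*, *c1qb* and *c1qc*, already counted among the macrophage genes. Between the mutant libraries 3 of the 6 were called again. The mean rank was higher in ventricles for 11 of the 14 in the wild type and for 8 between the mutant libraries. *c6*, a component of the membrane attack complex, is listed under 2 gene IDs that may share reads. The higher of them had 11474 and 12791 normalized counts in ventricles and 40, 104 and 71 in fins, and the other 4010 and 5316 in ventricles and 28, 0 and 42 in fins. *c3a.1* had 475 and 408 in ventricles and 3, 2 and 3 in fins.

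Neutrophil and lymphocyte genes were near the middle or low in rank. Their summed shares were higher in fins, at 551 to 706 ppm for neutrophil genes against 183 and 265 ppm in ventricles. For lymphocyte genes the shares were 122 to 131 ppm in fins and 40.6 and 26.9 ppm in ventricles. Shares leaned to fins for the median gene as well, with a log2 share difference (ventricle minus fin) of -1.10 over all genes. The median was -1.11 for the neutrophil list, near that of all genes, and -1.95 for the lymphocyte list. In rank, the median difference of the neutrophil list was 1.25 points towards ventricles. The mean rank was higher in fins for 6 of 12 neutrophil and 5 of 8 lymphocyte genes, and between the mutant libraries for 10 and 8. The neutrophil list held 1 ventricle-higher gene of 12, *ncf1* (8.33%, against 10.05% of all genes), and 0 fin-higher genes. The myeloperoxidase gene *mpx* had 93 and 180 normalized counts in ventricles and 233, 319 and 212 in fins. Its groups did not overlap, yet *mpx* was called only in the mutant libraries, as fin-higher. Of 8 lymphocyte genes, the T cell co-receptor *cd8a* alone was called, as fin-higher (12.5%, against 8.97% of all genes). It had 1 and 0 in ventricles and 35, 21 and 27 in fins. *lck*, a T cell kinase, had 9 and 5 in ventricles and 50, 69 and 93 in fins.

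Genes of the respiratory chain ranked higher in ventricles. Of 115 jointly listed genes of the KEGG pathway for oxidative phosphorylation, 53 were ventricle-higher (46.1%, against 10.05% of all genes) and 0 fin-higher. The median rank was 93.9 in ventricles and 69.1 in fins. Several were muscle-type or second copies of respiratory subunits. *cox4i1l* had 7994 and 7028 normalized counts in ventricles and 2, 0 and 0 in fins, and *cox6a2* had 8567 and 7057 in ventricles and 2, 6 and 7 in fins. *cox7c*, which ranked closer to the middle in fins, had 3169 and 2893 in ventricles and 146, 116 and 133 in fins. Of the ribosomal proteins, 12 of 77 were ventricle-higher (15.6%, nearer the 10.05% of all genes) and 0 fin-higher. In rank they leaned the same way, and 75 of 77 ranked higher in both ventricle libraries than in every fin, as did 36.4% of all genes. The low ceiling of the fin values touches both lists, and its part was not tested. The citrate cycle list had 2 of 30 ventricle-higher (6.67%), below the share of all genes, and 1 fin-higher. Its median rank was 97.3 in ventricles and 89.5 in fins, which leaves little room for a gap of 20 points. Both ventricle libraries ranked above every fin for 20 of the 30 genes, against 36.4% of all genes. The low ceiling of the fin values touches this list too. Its member *mdh1ab*, a malate dehydrogenase, had 2839 and 2411 in ventricles and 18, 9 and 17 in fins. In glycolysis, 12 of 64 were ventricle-higher (18.75%) and 4 fin-higher (6.25%), against 10.05% and 8.97% of all genes. The aldolase gene *aldoab* had 14231 and 12072 in ventricles and 9, 22 and 4 in fins, and *gpib*, a glucose phosphate isomerase, had 6683 and 4716 in ventricles and 14, 10 and 9 in fins.

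**Figure D3:**
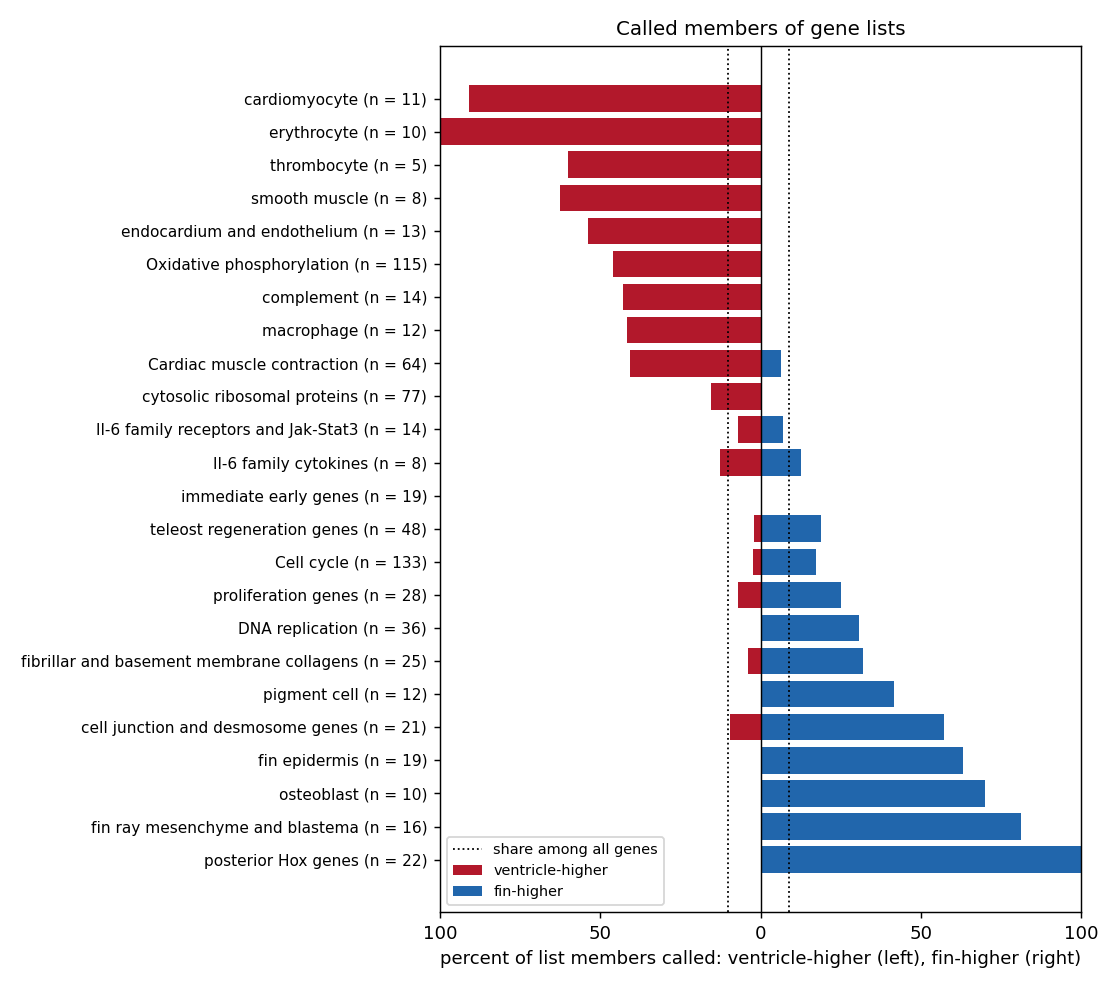
Percent of the members of 24 gene lists called ventricle-higher (red, left) and fin-higher (blue, right), with the number of jointly listed members in parentheses and dotted lines at the share among all genes. The erythrocyte list reaches 100% on the ventricle side and the posterior Hox list 100% on the fin side, while immediate early genes have no member called.

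On the fin side, positional genes came first. All 22 jointly listed posterior Hox genes (paralogue groups 9 to 13) were fin-higher, against 8.97% of all genes. Their median rank was 3.07 in ventricles and 48.9 in fins. These homeobox transcription factors mark position along the body and the fin. *hoxa13b* (chromosome 16, 20895904 to 20897836) had 0 and 0 normalized counts in ventricles and 417, 411 and 396 in fins. Its paralog *hoxa13a* (chromosome 19, 19729506 to 19731291) had 0 and 1 in ventricles and 322, 324 and 317 in fins. Over the 22 genes no ventricle value exceeded 3, and fin values ran from 15 for *hoxd13a* in fin 3 to 417 for *hoxa13b* in fin 1. The 5 Hoxd genes lay between 15 and 42 in fins. In the mutant libraries 21 of the 22 were called the same way, the exception being *hoxd13a*.

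Genes of the skin and of its junctions followed. Of 19 fin epidermis genes, 12 were fin-higher (63.2%, against 8.97% of all genes) and 0 ventricle-higher. The basal keratin gene *krt5* (chromosome 23, 10173196 to 10177458) had 52 and 14 normalized counts in ventricles and 2508, 1768 and 2007 in fins. *tp63*, the transcription factor of stratified epithelia, had 137 and 147 in ventricles and 1607, 1115 and 1247 in fins. *epcam*, an epithelial adhesion molecule, had 1 and 1 in ventricles and 827, 659 and 710 in fins. *krt93* varied among fins, with 37 and 36 in ventricles and 1437, 130 and 1061 in fins. Fin 2 was the lowest fin for 14 of the 19 genes.

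Some keratins were not particular to the fin. *krt8* had 35256 and 40356 normalized counts in ventricles and 1802, 1416 and 1517 in fins, which put it above rank 99 in all 5 libraries. *krt94* and *krt18a.1* did the same, and *krt4* and *krt91* ranked above 90 in every library without a call. Keratins of the type 8 and 18 pair are known in simple epithelia as well as in skin. The summed share of the epidermis list was similar in both tissues (5457 and 6703 ppm in ventricles, 5221 to 6958 ppm in fins). Its defining members *krt5*, *tp63* and *epcam* were nevertheless far apart. The low ceiling of the fin values touches such sums, so they do not show equal amounts of these transcripts, and the part of the ceiling was not tested.

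Junction genes gave 12 fin-higher (57.1%) and 2 ventricle-higher (9.52%) of 21, against 8.97% and 10.05% of all genes. *cdh1*, which encodes E-cadherin, had 55 and 19 normalized counts in ventricles and 1558, 1205 and 1404 in fins. The epithelial claudins *cldna*, *cldnb*, *cldne*, *cldnf*, *cldnh*, *cldni* and *cldn1* were all fin-higher, with *cldnb* at 0 in both ventricle libraries and at 612, 458 and 558 in fins. Desmosome genes used by the heart as well, *dspa*, *dspb*, *jupa* and *dsc2l*, ranked above 90 in all libraries and were not called. *cldnc* was the exception among the claudins of this list. It had 97 and 132 in ventricles and 2, 0 and 1 in fins.

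The 15 fin-higher genes with the widest separation in share were led by *col17a1b* (chromosome 13, 24750078 to 24779692), a collagen of the hemidesmosome that ties the epidermis to its basement membrane. It had 3 and 4 normalized counts in ventricles and 3199, 2380 and 2657 in fins. The list also held the epithelial splicing regulators *esrp1* and *esrp2*, with 1 and 0 and with 0 and 0 in ventricles, and with 1577, 954 and 1074 and with 1019, 816 and 906 in fins. The mucin gene *muc5.2* had 0 and 0 in ventricles and 1159, 1127 and 907 in fins. The others were *fat2*, a giant cadherin of skin, *gdpd2*, the envoplakin gene *evpla*, *krt97*, *gpa33a*, *pkp3a*, the tight junction gene *tjp3*, *capn9*, the matriptase gene *st14a*, *col10a1a* and *nectin4a*. They lay between 0 and 13 in ventricles and between 680 and 2345 in fins. All 15 were called fin-higher in the mutant libraries too.

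Skeletal genes of the fin rays were next. Of 10 osteoblast genes, 7 were fin-higher (70%, against 8.97% of all genes). All 10 ranked higher in every fin than in both ventricle libraries, as did 42.8% of all genes. *sp7*, the transcription factor of committed osteoblasts, had 3 and 1 normalized counts in ventricles and 153, 205 and 150 in fins. *col10a1a*, a collagen of teleost bone-forming cells, had 0 and 1 in ventricles and 706, 773 and 680 in fins. *runx2b*, an earlier osteoblast factor, had 31 and 15 in ventricles and 52, 112 and 89 in fins and was not called. *ihha*, the Indian hedgehog ligand, was at 0 in both ventricle libraries and at 44, 62 and 75 in fins.

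Genes of the ray mesenchyme and blastema gave 13 fin-higher of 16 (81.25%, against 8.97% of all genes). The 13 include *hoxa13a*, *hoxa13b*, *hoxc13a*, *hoxc13b* and *hoxd13a*, already counted among the posterior Hox genes. *msx1b*, a homeobox gene of the early blastema, had 4 and 4 normalized counts in ventricles and 314, 308 and 345 in fins. *tph1b* had 3 and 0 in ventricles and 563, 516 and 574 in fins. The ligand gene *fgf20a*, which fin regeneration requires, had 2 and 1 in ventricles and 91, 146 and 153 in fins. *lepb*, a leptin gene known from injury responses in both organs, was not called, with 117 and 48 in ventricles and 143, 170 and 211 in fins. The actinotrichia genes *and1* and *and2* were low to moderate, *and1* at 23 and 54 in ventricles and 82, 132 and 70 in fins.

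Pigment and nerve genes were present at lower levels. Of 12 pigment cell genes, 5 were fin-higher (41.7%, against 8.97% of all genes) and 0 ventricle-higher. The melanosome gene *pmela* had 9 and 0 normalized counts in ventricles and 250, 234 and 232 in fins. Of 8 nerve and glia genes, 2 were fin-higher (25%, against 8.97% of all genes). These were *mbpb*, a myelin gene (126 and 162 in ventricles, 571, 468 and 452 in fins), and the neural crest factor *sox10* (10 and 6 in ventricles, 125, 130 and 114 in fins).

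Matrix genes were in part shared and in part called in either direction. The fibronectin genes were near the top in both tissues, with *fn1b* at 43357 and 53796 normalized counts in ventricles and 6719, 5353 and 5524 in fins, the largest mean share of any jointly listed gene in fins. *fn1a*, *col1a1a*, *col1a1b*, *col1a2*, *col5a1*, *col5a2a* and *col12a1a* also ranked above 99 in all 5 libraries. Altogether 36 genes did so, against 193 genes above 99 in both ventricle libraries and 171 in all 3 fins. Of the 171, 136 ranked above 90 in both ventricle libraries, and of the 193, 97 ranked above 90 in all fins. The low ceiling of the fin values touches the order and the shares at the top of the fins. Its part in the place of the fibronectin and collagen genes there was not tested. Among 25 collagen genes, 8 were fin-higher (32%) and 1 ventricle-higher (4%), against 8.97% and 10.05% of all genes.

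The fin-higher collagens were mostly those of the skin basement membrane and its anchors. *col7a1*, the collagen of anchoring fibrils, had 34 and 20 normalized counts in ventricles and 2616, 2544 and 2477 in fins. The basement membrane chains *col4a5* and *col4a6* had 30 and 29 and 18 and 16 in ventricles, and 1257, 1195 and 1415 and 630, 629 and 747 in fins. The more general chains *col4a1* and *col4a2* lay the other way without a call, with *col4a1* at 2356 and 2813 in ventricles and 278, 299 and 207 in fins. The paralogs *col5a2a* and *col5a2b* differed. *col5a2a* was high in both tissues (12118 and 13929 in ventricles, 3062, 2628 and 2751 in fins), while *col5a2b* was at 0 in both ventricle libraries and at 385, 646 and 429 in fins.

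Of 14 transitional matrix genes, 2 were fin-higher (14.3%) and 1 ventricle-higher (7.14%), near the 8.97% and 10.05% of all genes. Among them *tnc*, which encodes tenascin C, was fin-higher, with 103 and 259 normalized counts in ventricles and 3043, 2826 and 2734 in fins. *vcana*, a versican, had 11 and 10 in ventricles and 441, 405 and 433 in fins. *hapln1b*, a link protein of hyaluronan matrix, was ventricle-higher with 327 and 402 in ventricles and 59, 79 and 51 in fins, and its paralog *hapln1a* was not called, with 1230 and 1211 in ventricles and 2545, 2138 and 2211 in fins. The periostin genes *postna* and *postnb* ranked above 90 in all libraries. Of the KEGG list for receptors of the extracellular matrix, 21 of 68 were fin-higher (30.9%) and 7 ventricle-higher (10.3%), against 8.97% and 10.05% of all genes. The hemidesmosome integrin *itgb4* had 88 and 104 in ventricles and 2549, 1988 and 1784 in fins, and the laminin gene *lamb2* had 4667 and 4214 in ventricles and 51, 111 and 25 in fins. Of 14 genes of metalloproteinases and their inhibitors, 2 were fin-higher (14.3%) and 1 ventricle-higher (7.14%), again near the shares of all genes. *mmp30* (2 and 1 in ventricles, 254, 263 and 264 in fins) and *mmp11b* were fin-higher, and *mmp15b* was ventricle-higher.

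In the interleukin-6 family, the pathway the series was made to study, the share of genes called was near that of all genes. Of 8 cytokine genes, *cntf* was ventricle-higher (151 and 136 normalized counts in ventricles, 33, 36 and 38 in fins) and *clcf1* fin-higher (17 and 22 in ventricles, 485, 484 and 603 in fins). Both encode ligands of the ciliary neurotrophic factor receptor. The Il-11 ligand gene *il11a* had 11 and 121 in ventricles and 82, 155 and 159 in fins, so that the groups overlapped, and the ventricle libraries ranked it at 22.7 and 57.6. *il11b* had 18 and 34 in ventricles and 35, 46 and 62 in fins and was not called.

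Among 14 receptor and Jak-Stat genes, *lifra* was ventricle-higher, with 89 and 162 normalized counts in ventricles and 1, 6 and 2 in fins. *cntfr*, the receptor of the ciliary factor, was fin-higher, with 91 and 78 in ventricles and 300, 406 and 365 in fins. The paralog *lifrb* had 331 and 401 in ventricles and 1204, 1043 and 1166 in fins and was not called in the wild type. It ranked less than 20 points from the top in ventricle 2, so the rule could not call it fin-higher. The Il-11 receptor gene *il11ra* (chromosome 10, 13305610 to 13396720) was not called, with 107 and 189 in ventricles and 65, 80 and 57 in fins. *il6st* and *jak1* ranked above 96 in every library and *stat3* from 89.5 up. The feedback inhibitor *socs3a* had 6000 and 8417 in ventricles and 756, 655 and 789 in fins, with a lowest rank of 94.8 in fin 2.

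Of 48 genes from a published list of conserved teleost regeneration genes, which the study applied to the fin libraries of this series, 9 were fin-higher, 1 was ventricle-higher and 38 were called in neither direction. These shares are 18.75% and 2.08%, against 8.97% and 10.05% of all genes. The median rank was 74.1 in ventricles and 84.8 in fins, but the median difference per gene was -1.10 points, against -1.13 for all genes. Between the mutant libraries it was 1.16 points. Among the fin-higher genes, the receptor gene *met* had 20 and 17 normalized counts in ventricles and 383, 525 and 491 in fins, and the helix-loop-helix gene *bhlha9* had 0 and 0 in ventricles and 254, 288 and 322 in fins. The activin gene *inhbaa*, which fin regeneration requires, had 79 and 116 in ventricles and 356, 507 and 648 in fins. *mical2a*, an actin oxidase, was the ventricle-higher member (1629 and 1383 in ventricles, 160, 172 and 164 in fins). Of 19 immediate early genes, the transcription factors and phosphatases induced within minutes of stress, 0 were called either way, and in 13 of them every fin ranked above both ventricle libraries, as it did for 42.8% of all genes. *egr1*, for instance, had 781 and 566 in ventricles and 1038, 1160 and 1103 in fins.

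Proliferation genes ranked somewhat higher in fins. Of 28, 7 were fin-higher (25%) and 2 ventricle-higher (7.14%), against 8.97% and 10.05% of all genes. In 26 of the 28 every fin ranked above both ventricle libraries (42.8% of all genes). The cyclin gene *ccne2* had 28 and 44 normalized counts in ventricles and 238, 236 and 231 in fins. The kinase gene *plk1* had 160 and 192 in ventricles and 556, 452 and 552 in fins. *mki67* had 481 and 716 in ventricles and 1294, 1286 and 1320 in fins and was not called. Neither was *pcna* (981 and 1208 in ventricles, 878, 685 and 741 in fins). In ventricles *mki67* and *pcna* ranked less than 20 points from the top, so the rule could not call them fin-higher. Both ventricle-higher members were gene IDs of *rrm2*, a ribonucleotide reductase subunit, whose 2 copies had nearly equal values and may share reads. In the KEGG list for DNA replication, 11 of 36 were fin-higher (30.6%, against 8.97% of all genes) and 0 ventricle-higher. Among the 11 was *pola1* (136 and 185 in ventricles, 577, 658 and 557 in fins). In the wider KEGG list for the cell cycle, 23 of 133 were fin-higher (17.3%) and 3 ventricle-higher (2.26%), against 8.97% and 10.05% of all genes. None of the fin-higher calls of the proliferation and replication lists was made between the mutant libraries, where 0 of 28 proliferation genes and 0 of 36 replication genes were fin-higher. Of the 23 cell cycle genes, the inhibitor gene *cdkn2c* alone was fin-higher there too. There the mean rank of the proliferation genes was higher in fins for 11 of the 28, against 26 of 28 in the wild type. The difference between genotypes was not tested.

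Patterning signals were called in both directions. Of 151 genes of the KEGG list for Wnt signaling, 21 were fin-higher (13.9%) and 8 ventricle-higher (5.30%), against 8.97% and 10.05% of all genes. The ligand gene *wnt5a* had 0 and 5 normalized counts in ventricles and 130, 193 and 225 in fins, and *wnt10a* and *wnt3* were at 0 in both ventricle libraries and at 51, 82 and 69 and at 19, 47 and 50 in fins. The target and transducer *lef1* had 25 and 25 in ventricles and 511, 470 and 557 in fins. In ventricles the ligands *wnt2ba* and *wnt2bb* and the secreted inhibitor *sfrp5* were higher, with *sfrp5* at 391 and 553 in ventricles and 5, 7 and 4 in fins. The retinoic acid-degrading enzymes *cyp26a1* and *cyp26c1* were fin-higher, *cyp26a1* with 1 and 7 in ventricles and 319, 310 and 288 in fins.

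Among inflammatory signals, *tgfb2* had 975 and 1035 normalized counts in ventricles and 65, 102 and 111 in fins, and *tgfb1b* and *cxcl12b* were also ventricle-higher. The chemokine receptor *cxcr4a* was fin-higher, with 17 and 11 in ventricles and 419, 398 and 415 in fins, while its paralog *cxcr4b* was not called (1132 and 777 in ventricles, 248, 164 and 204 in fins). *cxcl8b.1*, a neutrophil attractant, had 9 and 4 in ventricles and 164, 91 and 89 in fins. *il1b* had 12 and 22 in ventricles and 87, 149 and 91 in fins and missed the gap.

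Teleosts kept many duplicated genes from a whole-genome duplication, and their copies are often named with a and b endings. Pairs were taken from these endings alone, which also join some genes that are not such duplicates. Of 2143 pairs, 20 (0.933%) had a ventricle-higher and a fin-higher copy. Another 50 pairs had both copies ventricle-higher and 71 both fin-higher, and 309 and 286 had a single ventricle-higher or fin-higher copy. Among all genes 10.05% were ventricle-higher and 8.97% fin-higher. How often unrelated pairs of genes would be called in opposite directions was not computed. The 20 pairs are therefore not shown to be more than unrelated genes would give. Of the 20 opposite pairs, the desmosome genes *pkp3b* and *pkp3a* had the largest summed rank gap. *pkp3b* (chromosome 7, 32926760 to 32981559) had 1906 and 2285 normalized counts in ventricles and 68, 94 and 73 in fins. *pkp3a* (chromosome 25, 22151271 to 22191983) had 13 and 0 in ventricles and 2345, 1592 and 1811 in fins.

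The integrin gene *itga6b*, the partner of *itgb4* in hemidesmosomes, had 73 and 57 normalized counts in ventricles and 2025, 1405 and 1568 in fins, while *itga6a* had 193 and 161 in ventricles and 26, 25 and 25 in fins. *pcolcea* and *pcolceb* encode enhancers of procollagen processing. *pcolcea* had 1310 and 1613 in ventricles and 108, 159 and 116 in fins, and *pcolceb* 8 and 6 in ventricles and 197, 167 and 142 in fins. Other leading pairs were *dapk2*, *arhgap12*, *acot11*, *dennd2d*, *gask1* and *mhc2*. *mhc2a* and *mhc2b* are class II histocompatibility genes, which vary between fish by haplotype. They lie on the same chromosome, and whether they are duplicates of each other was not checked. Both calls also held between the mutant libraries for 9 of the 20 pairs (45%), among them *pkp3*, *dapk2*, *itga6* and *arhgap12*, but not the *mhc2* or *pcolce* pairs.

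**Figure D4:**
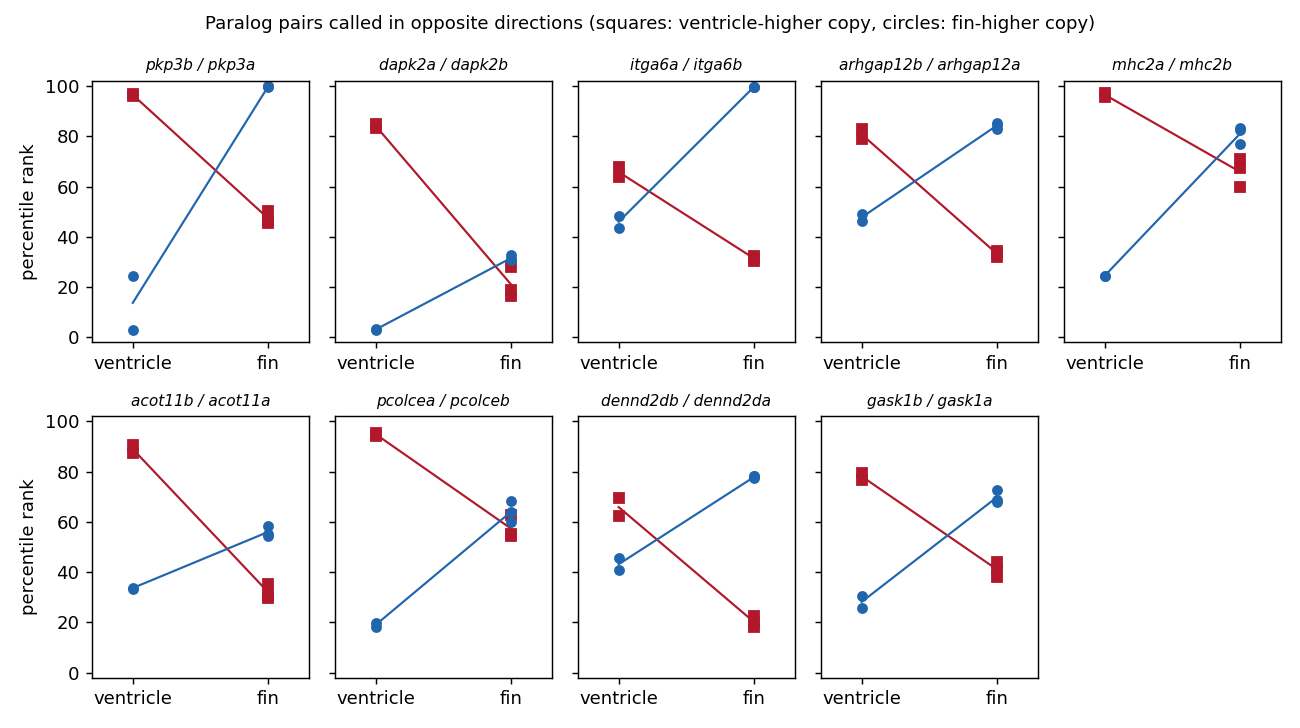
Percentile rank in each wild-type library for 9 of the 10 opposite pairs with the largest summed rank gaps, ventricles on the left and fins on the right of each panel. Pairs were taken from a and b symbol endings alone. Squares mark the ventricle-higher copy, circles the fin-higher copy, and lines join the group means; in all 9 panels the lines cross.

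By position, the called genes were spread over the genome except on chromosome 4. On 24 of the 25 chromosomes 6.58 to 11.01% of genes were ventricle-higher and 7.04 to 12.2% fin-higher. On chromosome 4, 329 of 1237 genes were ventricle-higher and 50 fin-higher. The excess lay in the part from 30 Mb (GRCz11) to the end, a boundary drawn after the values were seen, where 282 of 672 genes were ventricle-higher (42.0%) and 8 fin-higher (1.19%). Before 30 Mb the shares were 8.32% and 7.43%. The median gene of the distal part had 51 and 49 normalized counts in ventricles and 7, 7 and 8.5 in fins.

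The distal part carries long arrays of zinc finger genes with similar sequences, and 118 of the 672 genes have a *znf* symbol. Of these, 37 were ventricle-higher and 0 fin-higher, against 4 ventricle-higher and 8 fin-higher of 174 *znf* genes elsewhere. BX649307.1, named above, lies here too. Between the mutant libraries 287 of the 672 were ventricle-higher, 244 of them the same genes. Other genes with near copies leaned the same way outside this region, though less. Of 66 unprocessed pseudogenes, 22 were ventricle-higher (33.3%), as were 66 of 448 genes that share a symbol with another listed gene (14.7%), against 8.97% of all genes outside the region. The sources used here do not say whether reads that align to several places were treated alike in both tables, and their part was not tested. Without the 672 genes, 1796 genes were ventricle-higher and 1847 fin-higher.

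**Figure D5:**
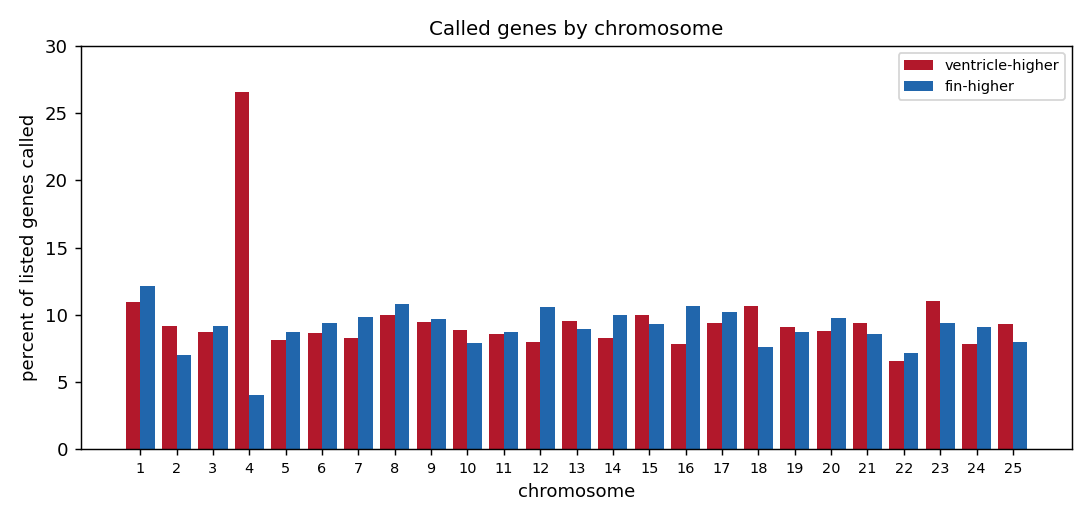
Percent of the jointly listed genes on each of the 25 chromosomes that were ventricle-higher (red, left bar) or fin-higher (blue, right bar). Chromosome 4 stands out with 26.6% ventricle-higher and 4.04% fin-higher genes, and the other 24 lie between 6.58 and 12.2%.

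The *il11ra* mutant libraries gave the same measure in samples that took no part in the calls. The mutated gene *il11ra* had 38 and 23 normalized counts in mutant ventricles and 3, 6 and 7 in mutant fins, below all wild-type libraries of its tissue. Of the 2078 ventricle-higher calls, 1483 (71.4%) were also made between the mutant libraries, as were 1231 (66.4%) of the 1855 fin-higher calls. The direction of the mean rank difference was kept for 98.6% and 97.8%. A single gene was called in opposite directions. *cldnc*, at 97 and 132 in wild-type ventricles and 2, 0 and 1 in wild-type fins, had 33 and 37 in mutant ventricles and 328, 166 and 153 in mutant fins. Sharing the tissue, injury and table, the mutant libraries do not separate these from each other.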

How the data were processed

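RNA was taken from whole cryoinjured ventricles and amputated caudal fins of wild-type zebrafish and their *il11ra* mutant siblings, and sequenced from stranded poly(A) libraries (TruSeq). The submitters' processing notes name Trimmomatic 0.39, STAR 2.7.3a, featureCounts 1.6.5, DESeq2 1.26 and the GRCz11 genome. The deposited values, treated here as a score, are read counts that the authors divided by a size factor per library and rounded, in a separate table for each tissue. How reads aligning to several genes were counted, and whether counting used strand, is not given in the sources used here. The depth in raw reads is therefore not known, and no counting interval was computed.

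The tables were joined on Ensembl gene ID, and 985 of the 20684 joined genes carried different symbols in them. Percentile ranks (ties averaged) and shares of each library over the joined genes were computed in Python 3.11.15 with pandas 2.3.3 and numpy 2.4.6, without a filter on low values, and drawn with matplotlib 3.10.9. A call needed a gap of 20 percentile points between every ventricle and every fin library. No test was run between the tables. The rank code was tested on simulated data. Other gaps, filters and a share-based call were tried, and each library was left out in turn. Named genes were the 15 called genes per direction with the largest smallest-pair difference in log2(share + 1), the 10 opposite paralog pairs with the largest summed gaps, the 10 largest shares per tissue, and members of marker and pathway lists. Of the leading pairs, 1 is not reported here. Members of KEGG lists were named after their values were seen. The comparison and its lists were chosen with earlier results of these data known. The p-value given is the smallest a design of this size allows.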

Additional observations from a re-analysis of the deposited data

Results flagged for a closer look

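Genes listed for a single tissue entered no comparison, and some of them were abundant. The 29 genes of the mitochondrial chromosome were listed for ventricles alone and held 11.9 and 10.04% of the summed values of the wild-type ventricle libraries. *myl7*, the ventricular and atrial myosin light chain gene used as a heart marker in zebrafish, was listed for ventricles alone with 203695 and 148952 normalized counts. *tubb2b*, a beta tubulin gene, was listed for fins alone with 1047, 831 and 883 normalized counts. Of the 2827 genes listed for ventricles alone, 91 averaged at least 1000 normalized counts, against 0 of the 1518 listed for fins alone. Why these genes are listed for a single tissue is not given in the sources used here.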

How the results depend on the processing

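No paired analysis was possible because the results come from no test, and equal replicate numbers in different tissues do not join animals. With a gap of 10 points 3853 genes were ventricle-higher, 3988 fin-higher and 94 paralog pairs opposite; with a gap of 30 points the counts were 1203, 959 and 7. Calling by a share at least 4-fold apart in every library pair gave 944, 3575 and 12. The median difference over all genes in log2 share was -1.10, and -0.886 without the 20 largest genes of either tissue. Leaving out each library in turn gave 2210 to 2429 ventricle-higher genes, 1956 to 2222 fin-higher genes and 22 to 30 opposite pairs. A call needs the gap in every library pair, so leaving out a library can only add calls, and these counts could not fall. On the log2 share scale, whose median over all genes was -1.10, the median of 11 lists turned negative: neutrophil -1.11, inflammatory cytokines -0.41, adrenergic signaling -0.68, calcium signaling -0.61, vascular smooth muscle contraction -0.52, PPAR signaling -0.92, peroxisome -1.11, proteasome -0.85, phagosome -0.67, retinol metabolism -0.76 and glutathione metabolism -1.10. With a library left out, list medians in rank points ran over 0 for neutrophil genes (-2.20 to 6.31), Il-6 family receptors (-2.04 to 0.13), peroxisome (-0.21 to 2.14), proteasome (-0.49 to 1.01), protein export (-2.68 to 0.82) and lysosome (-0.65 to 0.28). The causes of these shifts were not tested. Of the other list medians under these settings, 389 counted as the same and 55 moved beyond the spread used for the comparison without changing sign. Among the 389 were 55 medians on the log2 share scale, which has another unit, so that only their sign could be compared. All counts rest on 2 and 3 libraries, on separately scaled tables and on fin libraries with a low ceiling.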

Other observations

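Some lists of basic cell machinery held few calls. In the KEGG lists, 0 of 38 genes of aminoacyl-tRNA biosynthesis were called in either direction, 1 of 48 proteasome genes was ventricle-higher, 5 of 131 spliceosome genes were ventricle-higher and 1 of 69 genes of ribosome biogenesis was fin-higher. Other such lists lay nearer the share of all genes (10.05%). Ventricle-higher were 17 of 168 genes of protein processing in the endoplasmic reticulum (10.12%) and 14 of 122 ribosome genes (11.5%). The median rank of the proteasome genes was 88.7 in ventricles and 87.4 in fins. It was 80.7 and 88.3 for aminoacyl-tRNA biosynthesis, 78.4 and 81.6 for the spliceosome and 71.8 and 80.4 for ribosome biogenesis. Ranks this near the top leave little room for the gap that a call needs. The few calls in these lists thus do not show that their genes rank alike in both tissues. In the KEGG list for calcium signaling, 27 of 166 genes were ventricle-higher (16.3%) and 18 fin-higher (10.8%), against 10.05% and 8.97% of all genes. The calcium-dependent kinase gene *camk2d2* had 796 and 406 normalized counts in ventricles and 0, 3 and 2 in fins. The G protein subunit gene *gna14* had 0 and 0 in ventricles and 271, 224 and 291 in fins. Genes of fatty acid degradation, which supplies much of the fuel of heart muscle, had 6 of 38 members ventricle-higher (15.8%) and 2 fin-higher (5.26%). *cpt1ab*, which admits fatty acids to mitochondria, had 3673 and 3346 in ventricles and 131, 235 and 202 in fins. These genes were named after their values were seen.

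The genes at the top of each tissue ranked as follows in the other. Of the 193 genes ranked above 99 in both ventricle libraries, 42 ranked below 50 in every fin and 23 below 20. Of the 171 genes ranked above 99 in every fin, 13 ranked below 50 in both ventricle libraries and 2 below 20. Whether these counts differ was not tested, and the low ceiling of the fin values touches them.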
